A study of Mus musculus with 778 samples.

Results

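Histone deacetylases were followed through mouse oocyte growth by the 10 genes of the family that were chosen by name, *Hdac1*, *Hdac2*, *Hdac3*, *Hdac4*, *Hdac5*, *Hdac6*, *Hdac7*, *Hdac8*, *Hdac10* and *Hdac11*. All 10 had a row in the count table, which held 23201 genes. By the usual grouping, 4 of them are class I (*Hdac1*, *Hdac2*, *Hdac3* and *Hdac8*), 3 are class IIa (*Hdac4*, *Hdac5* and *Hdac7*) and 2 are class IIb (*Hdac6* and *Hdac10*), while *Hdac11* is the only class IV enzyme. The study measured transcripts in single oocytes of female ICR mice by RNA-seq with unique molecular identifiers (UMIs), random tags that allow each cDNA molecule to be counted once. Non-growing oocytes (NGO) had a diameter under 20 µm and came from mice 3 to 4 days old. Growing oocytes of 30 to 45 µm (GO1), 50 to 55 µm (GO2) and 60 to 65 µm (GO3) and fully-grown oocytes over 70 µm (FGO) came from mice 3 to 4 weeks old, so that oocyte stage and mouse age cannot be told apart wherever NGO was compared with a later stage. The labels name no treatment for these oocytes. The table held 46, 51, 26, 44 and 56 cells of NGO, GO1, GO2, GO3 and FGO, and values given below as a series of 5 keep that order. The table did not give the library of a cell, so each stage was 1 pooled sample without replicates and no test between stages was made.

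Histone deacetylases remove acetyl groups from lysines of histones and of other proteins and thereby oppose the acetyltransferases. *Hdac1* and *Hdac2* encode closely related catalytic subunits of the Sin3, NuRD, CoREST and MiDAC complexes, *Hdac3* that of the NCoR and SMRT complexes, and *Hdac8* acts outside these complexes, on the cohesin subunit SMC3 among others. Class IIa enzymes have weak activity of their own and shuttle between nucleus and cytoplasm, whereas the class IIb enzyme HDAC6 is a cytoplasmic deacetylase of α-tubulin and HSP90. In mouse oocytes, *Hdac1* and *Hdac2* are known to be needed together for follicle growth, and *Hdac2* is known to carry more of that function than *Hdac1*.

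The balance of *Hdac1* and *Hdac2* depends on reads of 2 related genes being told apart, so their coding sequences were compared first. *Hdac1* lies at chr4:129193348-129219957 on the minus strand and *Hdac2* at chr10:36694350-36721695 on the plus strand (NCBIM37, the same build as mm9). Of 1446 aligned coding positions, 1097 (75.9%) were identical, and the longest run the genes shared was 17 bases. None of the 2014 windows of 25 bases in the *Hdac1* transcript occurred in *Hdac2* (0 of 2014). A stretch of 90 coding bases is shown because it holds 18 differences, in capitals, by which a read from one gene is told from a read of the other.
Hdac1: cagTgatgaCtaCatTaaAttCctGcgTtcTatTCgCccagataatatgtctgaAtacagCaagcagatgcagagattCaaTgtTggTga
Hdac2: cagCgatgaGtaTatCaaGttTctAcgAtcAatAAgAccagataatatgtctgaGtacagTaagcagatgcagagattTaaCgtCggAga
These are coding positions 204 to 293 of *Hdac1* and 207 to 296 of *Hdac2*, counted from the first base of the start codon. For *Hdac1* the nearer source of shared reads was its processed copy *Gm10093* (chr17:78890905-78892881, plus strand), whose transcript was identical at 1953 of 1978 aligned positions (98.7%). Of the *Hdac1* windows, 1674 (83.1%) also occurred in *Gm10093*. The count table had no row named *Gm10093*, and how the authors' counting treated reads that match both is not given in the sources used here, so *Hdac1* values are uncertain to that extent.

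Depth differed widely among cells. Summed over cells, a stage held 24976634 (GO2) to 64311908 (FGO) UMIs, single cells held 22279 to 3898137, and the median per cell ran from 110146 in GO1 to 972294 in GO3. The 10 deepest cells carried 42.6, 80.4, 73.2, 46.7 and 49.7% of the UMIs of the stages. The 4 RNA libraries drew on 96 cell barcodes, all 96 used in more than 1 library and 8 in every library, and the columns of the table carry no barcode. The level of a gene is given as CPM, its UMIs per 1000000 UMIs of the stage, which is a share of the transcripts counted and not an amount per oocyte, with the exact 95% Poisson interval in parentheses. These intervals cover counting error only, not the spread between oocytes, mice or libraries. All 12 oocyte markers (*Zp3*, *Gdf9* and others) had at least 10 CPM in each stage. The 10 granulosa cell markers, which include *Amh* and *Cyp19a1*, summed to 14.3, 46.1, 37.7, 37.6 and 21.1 CPM, with single cells between 0 and 43.6, 0 and 149.6, 0 and 105.3, 8.60 and 88.1, and 0 and 88.9 CPM. Of these 10, 2 genes in GO1, 1 in GO2 and 1 in GO3 reached 10 CPM, and *Amh* was at 0 in GO2. The 10 stroma and theca markers summed to 2.65 to 14.3 CPM by stage and the 10 blood and vessel markers to 9.48 to 51.2 CPM, of which *Pecam1* alone gave 4.60 to 48.8 CPM, while *Hba-a1* and *Hbb-bs* were at 0 in all 5 stages. No stroma or theca marker reached 10 CPM in the sum of a stage. The highest NGO cell, however, had 257 CPM of these markers together, against an NGO median of 5.55 CPM. The part of these markers in the results below was not tested.

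Taken as a family, the deacetylases made up the largest share of the counted transcripts before growth. By spike-in RNAs, the study reported a higher relative mRNA abundance in GO1 than in NGO. A lower CPM in GO1 therefore need not mean fewer transcripts per oocyte. The 10 genes summed to 288 CPM (282 to 295) in NGO, 93.1 (89.5 to 96.8) in GO1, 76.9 (73.5 to 80.4) in GO2, 87.8 (85.2 to 90.4) in GO3 and 121.7 (119.1 to 124.5) in FGO. Single oocytes followed the sums, with medians of 278, 91.4, 72.7, 84.02 and 111.5 CPM, and with lowest and highest cells of 136.2 and 419 in NGO, 0 and 298 in GO1, 22.8 and 127.6 in GO2, 51.6 and 147.4 in GO3 and 58.7 and 226 in FGO. The cells of neighbouring stages overlapped. The peak in NGO was shared by 8 of the 10 genes, and 6 had their lowest level in GO2. How often this held over all genes was not counted, so it describes these 10 genes only. *Hdac1* and *Hdac2* were the 2 genes with at least 10 CPM in every stage, whereas *Hdac5* and *Hdac7* stayed under 1 CPM in all 5. When every cell was thinned to 20000 UMIs, the median number of the 10 genes with a UMI was 3, 1, 1, 1 and 1.5 per oocyte.

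**Figure D1:**
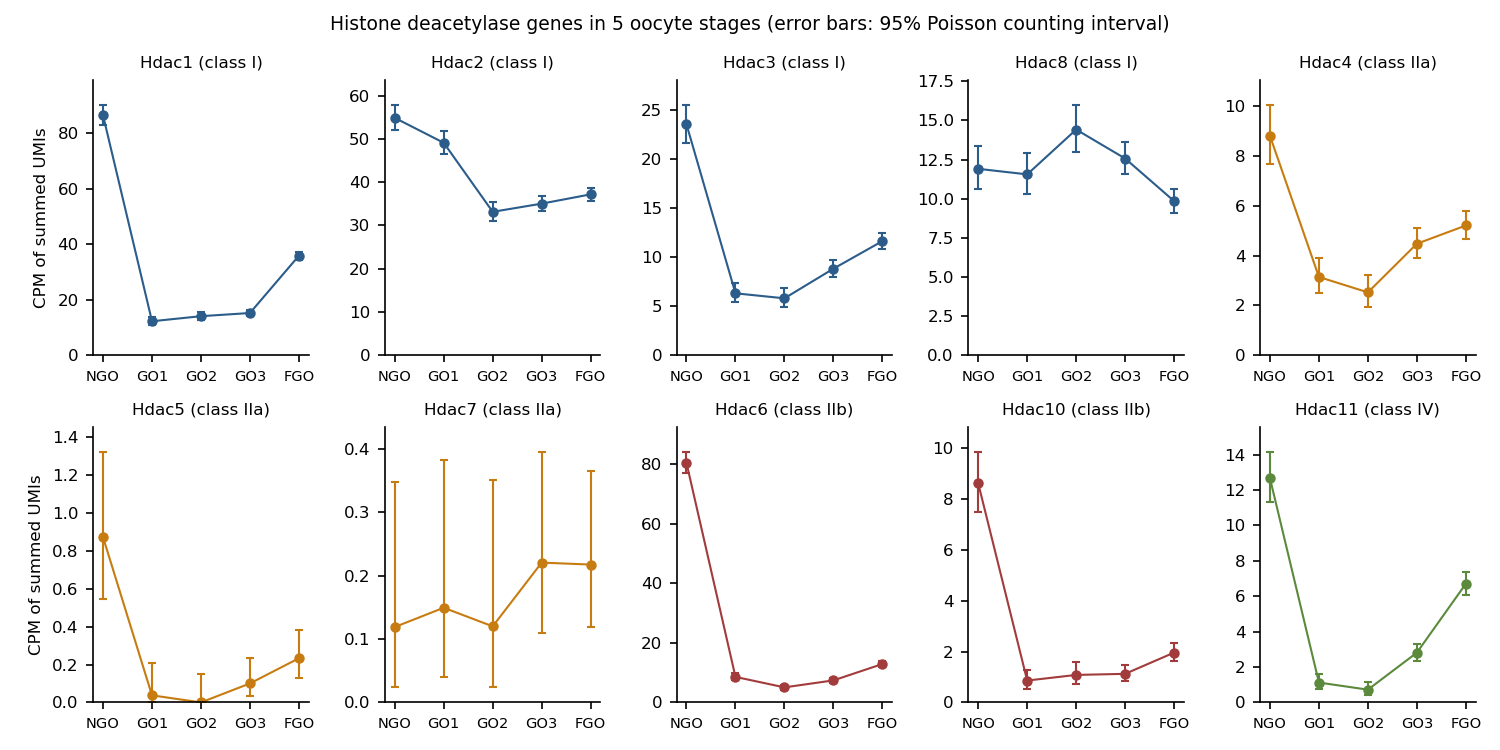
CPM of summed UMIs (vertical axis, from 0, with its own scale in each panel) of the 10 genes by stage (horizontal axis). Points are pooled stages and error bars exact 95% Poisson intervals; 8 of 10 genes peak in NGO, *Hdac8* peaks in GO2, and *Hdac7* is so rare that its intervals overlap in all stages.

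The make-up of the family shifted with growth as well. Class I genes gave 61.4% of the UMIs of the 10 genes in NGO (exact 95% binomial interval 60.2 to 62.5) and 85.1, 87.7, 81.6 and 77.7% in the later stages. Class IIb genes gave 30.9% in NGO (29.8 to 31.9) and 10.1, 7.96, 9.70 and 12.2% afterwards. Class IIa genes stayed between 3.40 and 5.47%, and *Hdac11* moved from 4.39% in NGO to 0.937% in GO2 and 5.51% in FGO. In CPM, class I went from 177 in NGO to 79.2 in GO1 and class IIb from 88.9 to 9.42. These are shares and sums of UMIs, not divided by transcript length. How well UMIs of different genes can be set against each other was not tested, so they are read here across stages and not as an order of the genes.

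**Figure D2:**
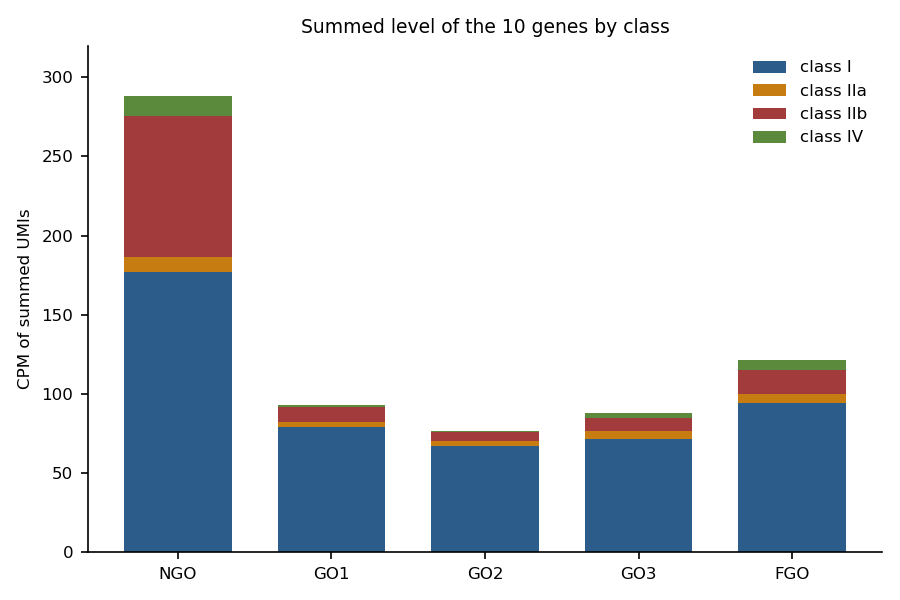
Summed CPM of the 10 genes (vertical axis, from 0) in the 5 stages (horizontal axis), stacked by class. The bar for NGO reaches 288 CPM, of which 88.9 CPM are class IIb, and no later bar exceeds 121.7 CPM.

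From NGO to GO1, 4 of the 10 genes passed the size rule, which asked for a difference of at least 2-fold and at least 10 CPM in the higher stage. All 4, *Hdac1*, *Hdac3*, *Hdac6* and *Hdac11*, were lower in GO1. Only 6 of the 10 genes had 10 CPM in either stage, without which a gene could not pass. Over all 8527 genes with 10 CPM in either stage, 25.7% were lower in GO1 by the same rule. Of the 4 genes, 3 (*Hdac3*, *Hdac6* and *Hdac11*) had 10 CPM in NGO and not in GO1, so that they could pass only as a fall. The median log2 change of all 10 genes, on the log2(CPM + 1) scale, was -1.50, against -0.14 for the 8527 genes. The scaling shifted that median of all genes to -0.02 with DESeq2 size factors and 0.05 with TMM factors, and the same 4 genes passed under both. Without the 10 deepest cells of each stage the median of all genes was -0.43, and as a mean over cells -0.35. In cells thinned to 20000 UMIs it was -0.32. From GO1 to GO2 and from GO2 to GO3, only 3 of the 10 genes had 10 CPM in either stage, and 0 of these 3 passed in either direction. Of all tested genes, 3.14% and 4.35% did, respectively. From GO3 to FGO, *Hdac1* alone of the 5 genes with 10 CPM passed as higher in FGO, as did 2.41% of tested genes. Between NGO and FGO, *Hdac1*, *Hdac3* and *Hdac6*, of the 6 genes with 10 CPM, were lower in FGO, where 16% of tested genes were. Between GO1 and FGO, *Hdac1* alone of the 5 genes with 10 CPM was higher in FGO, as were 7.98% of tested genes. These comparisons share their stages and are not independent of each other.

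*Hdac1* showed the widest swing among the class I genes. Its level was 86.5 CPM (82.9 to 90.2) in NGO, 12.2 (10.9 to 13.6) in GO1, 14.1 (12.6 to 15.6) in GO2, 15.2 (14.1 to 16.3) in GO3 and 35.9 (34.4 to 37.4) in FGO. It fell 7.07-fold (6.30 to 7.97) from NGO to GO1, or from 86.2 to 7.45 CPM without the 10 deepest cells of each stage, and the neighbours GO1 and GO2, and GO2 and GO3, lay within each other's counting error. It then rose 2.36-fold (2.17 to 2.57) from GO3 to FGO and ended 2.41-fold (2.27 to 2.56) below NGO. In single oocytes, the lowest, median and highest levels were 0, 83.99 and 166 CPM in NGO and 0, 0 and 39.1 in GO1. All 51 GO1 cells lay below the NGO median, and 42 of the 46 NGO cells lay above the highest GO1 cell. In GO2, GO3 and FGO, the medians were 9.71, 14.6 and 33.8 CPM and the highest cells 26.4, 30.0 and 123.2 CPM. Of the 56 FGO cells, 51 exceeded the GO3 median, although the cells of both stages overlapped. At 20000 UMIs per cell, *Hdac1* was detected in 78.3% of NGO cells (exact 95% binomial interval 63.6 to 89.1), 11.8% of GO1 (4.44 to 23.9), 19.2% of GO2 (6.55 to 39.4), 20.5% of GO3 (9.80 to 35.3) and 53.6% of FGO (39.7 to 67.01). Without thinning, the shares were 97.8, 47.1, 84.6, 97.7 and 98.2%, respectively.

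*Hdac2* met the size rule in no pair of stages. Its level was 54.9 CPM (52.03 to 57.9) in NGO, 49.1 (46.5 to 51.8) in GO1, 33.2 (30.9 to 35.5) in GO2, 35.04 (33.4 to 36.7) in GO3 and 37.2 (35.7 to 38.7) in FGO, with its highest value in NGO and its lowest in GO2. The NGO sum was 1.12-fold (1.04 to 1.21) that of GO1, and the mean over cells ran the other way, with 54.2 CPM in NGO and 56.5 in GO1. The GO1 sum was 1.48-fold (1.36 to 1.62) that of GO2, while the neighbours GO2 and GO3 did not differ beyond counting error. Single cells had medians of 53.3, 45.9, 30.4, 33.7 and 35.6 CPM. Their lowest values were 10.9, 0, 10.6, 20.4 and 4.89 CPM and their highest 98.2, 202, 61.9, 85.2 and 113.7 CPM. *Hdac2* had a UMI in every cell of NGO, GO2, GO3 and FGO, and in 44 of the 51 GO1 cells.

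**Figure D3:**
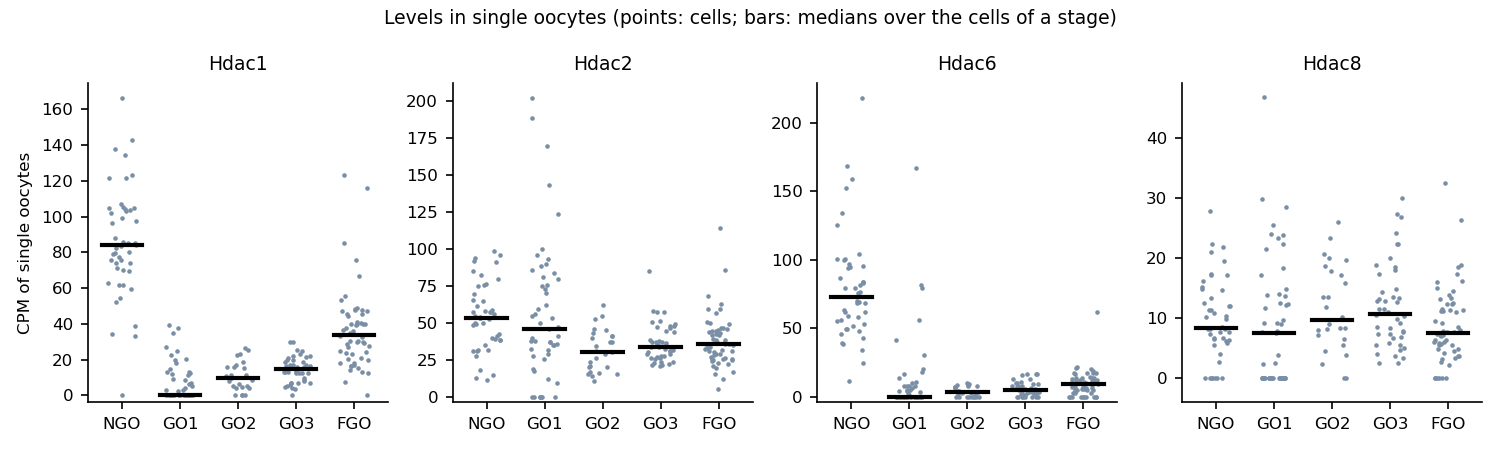
CPM in single oocytes (vertical axis, own scale per panel) of *Hdac1*, *Hdac2*, *Hdac6* and *Hdac8* by stage (horizontal axis), where each point is a cell and each bar the median of a stage. The median of *Hdac1* goes from 83.99 CPM in NGO to 0 in GO1 and 33.8 in FGO, while that of *Hdac8* stays between 7.53 and 10.8 CPM.

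In counted UMIs, the balance of *Hdac1* and *Hdac2* turned over between NGO and GO1 and came back to near parity in FGO. Parity in UMIs need not be parity in transcripts, because how well UMIs of different genes compare was not tested. *Hdac1* gave 61.2% of the UMIs of both genes in NGO (exact 95% binomial interval 59.6 to 62.8), 19.9% in GO1 (18.02 to 21.9), 29.8% in GO2 (27.2 to 32.5), 30.2% in GO3 (28.4 to 32.1) and 49.1% in FGO (47.6 to 50.5). The lowest share was thus in GO1, GO2 and GO3 did not differ beyond counting error, and the interval of FGO held 50%. Together the genes reached 141.4, 61.3, 47.2, 50.2 and 73.1 CPM. In oocytes with at least 10 UMIs of the pair (42, 25, 18, 42 and 51 cells), the median share was 62.03, 16.7, 28.99, 30.6 and 51.4%, respectively. *Hdac1* UMIs outnumbered *Hdac2* UMIs in 33 of 42 NGO cells, 0 of 25 GO1 cells, 1 of 18 GO2 cells, 0 of 42 GO3 cells and 26 of 51 FGO cells. The range within FGO, from 10 to 90.6%, was the widest of the 5 stages, against 36.7 to 87.5% in NGO, 0 to 45.5% in GO1, 9.09 to 62.2% in GO2 and 3.85 to 50% in GO3. Such a range depends on the number of cells, which was largest in FGO. The quartiles were 53.6 and 70.5%, 0 and 22.8%, 21.8 and 36.2%, 19.8 and 36.7%, and 39.4 and 60.3%. By quartiles FGO was not the widest. *Hdac2* UMIs without any *Hdac1* UMI were found in 1 of 46 NGO cells, 21 of 51 GO1 cells, 4 of 26 GO2 cells, 1 of 44 GO3 cells and 1 of 56 FGO cells. GO1 cells were the shallowest, with a median of 110146 UMIs against 540432 to 972294 in the other stages. How far depth set these counts was not tested.

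This share was also taken within cells of different depth and per transcript length. In the 10 deepest GO1 cells *Hdac1* gave 22.2% (20.0 to 24.6) of the pair, and in the other 41 cells 11.3% (8.19 to 15.2), from 1297 and 344 UMIs, respectively. The *Hdac1* level in these groups was 13.4 CPM (11.9 to 15.02) and 7.45 CPM (5.30 to 10.2). In NGO the share hardly moved, with 61.8% in the 10 deepest cells and 60.7% in the others. Divided by the length of the transcript with the longest coding sequence (2038 nt for *Hdac1* and 2005 nt for *Hdac2*), the shares were 60.8, 19.7, 29.4, 29.9 and 48.7%. With the longest annotated transcript of *Hdac2* instead (3250 nt), they were 71.5, 28.4, 40.3, 40.9 and 60.6%, with *Hdac1* the larger part in FGO. A UMI counts a molecule once, and whether division by length applies to these counts was not tested. The order of the stages by share was the same in all 3 versions.

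**Figure D4:**
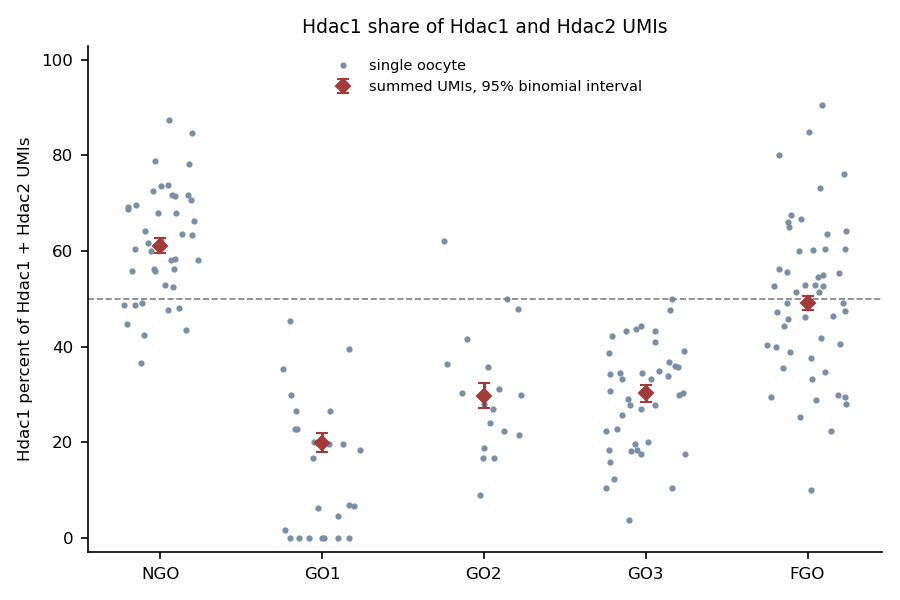
*Hdac1* as a percent of *Hdac1* plus *Hdac2* UMIs (vertical axis) in the 5 stages (horizontal axis). Blue-grey points are single oocytes with at least 10 UMIs of both genes, red diamonds the summed UMIs with 95% binomial intervals, and the dashed line marks 50%, which the sums cross from 61.2% in NGO to 19.9% in GO1 and reach again at 49.1% in FGO.

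*Hdac3*, on chromosome 18, was also highest in NGO. It had 23.6 CPM (21.7 to 25.5) in NGO, 6.32 (5.40 to 7.34) in GO1, 5.81 (4.90 to 6.83) in GO2, 8.83 (8.03 to 9.70) in GO3 and 11.6 (10.8 to 12.5) in FGO. The fall from NGO to GO1 was 3.73-fold (3.14 to 4.45; log2 -1.90, and -3.02 in thinned cells), and 48 of 51 GO1 cells lay below the NGO median. GO1 and GO2 did not differ beyond counting error. The FGO sum was 1.32-fold (1.17 to 1.49) that of GO3, with a mean over cells of 9.24 CPM in FGO and 8.76 in GO3, and in cells thinned to 20000 UMIs the direction turned (log2 -0.50). NGO stood 2.02-fold (1.81 to 2.26) over FGO, which was at the limit of the rule and no longer passed with DESeq2 size factors (log2 -0.94) or TMM factors (log2 -0.84). Single cells had medians of 21.3, 0, 4.45, 8.61 and 10.0004 CPM and highest values of 50.3, 41.5, 12.6, 19.1 and 32.3 CPM.

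*Hdac8* (chrX:99479978-99700698, minus strand) was the class I gene with the flattest course. It had 11.9 CPM (10.6 to 13.3) in NGO, 11.6 (10.3 to 12.9) in GO1, 14.4 (12.96 to 15.98) in GO2, 12.6 (11.6 to 13.6) in GO3 and 9.84 (9.09 to 10.6) in FGO. No pair of stages met the size rule, and NGO and GO1 differed by 1.03-fold (0.876 to 1.21), within counting error. GO3 stood 1.28-fold (1.14 to 1.43) over FGO. Its single-cell medians were 8.45, 7.53, 9.69, 10.8 and 7.53 CPM, with highest cells between 26.01 and 46.9 CPM. The share of *Hdac8* in the UMIs of the 10 genes was 4.13, 12.4, 18.7, 14.3 and 8.09%, with its peak in GO2.

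Of the class IIa genes only *Hdac4* was clearly detected. *Hdac4* (chr1:93829334-94044970, minus strand) had 8.81 CPM (7.69 to 10.05) in NGO, 3.14 (2.50 to 3.89) in GO1, 2.52 (1.94 to 3.23) in GO2, 4.48 (3.91 to 5.10) in GO3 and 5.21 (4.67 to 5.80) in FGO. It stayed below 10 CPM throughout and could not pass the rule, although NGO stood 2.81-fold (2.17 to 3.65) over GO1. That ratio was under the 2-fold limit without the 10 deepest cells (log2 -0.68) and in thinned cells (log2 -0.73). It had a UMI in 44 of 46, 24 of 51, 18 of 26, 39 of 44 and 44 of 56 cells. *Hdac5* was counted 22, 1, 0, 5 and 15 times in the 5 stages, which gave 0.873 CPM (0.547 to 1.32) in NGO and 0.233 (0.131 to 0.385) in FGO. Its NGO to GO1 ratio of 23.4 had a counting interval of 3.78 to 964, and 0 UMIs in GO2 allow a level of up to 0.120 CPM. *Hdac7* was counted 3, 4, 3, 11 and 14 times and lay between 0.119 and 0.221 CPM, without a difference beyond counting error. The fourth class IIa gene, *Hdac9*, which is not among the 10, had 0.595, 2.28, 1.64, 0.803 and 0.949 CPM and was thus not highest in NGO.

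*Hdac6* (chrX:7507246-7525015, minus strand) fell at the start of growth and stayed low in FGO. It had 80.3 CPM (76.9 to 83.9) in NGO, 8.56 (7.49 to 9.74) in GO1, 5.04 (4.20 to 6.01) in GO2, 7.39 (6.65 to 8.18) in GO3 and 12.9 (12.01 to 13.8) in FGO. It fell 9.38-fold (8.18 to 10.8) from NGO to GO1 and was still 6.24-fold (5.75 to 6.77) lower in FGO than in NGO. The lowest, median and highest cells had 11.9, 72.9 and 218 CPM in NGO, 0, 0 and 167 in GO1, 0, 3.40 and 10.5 in GO2, 0, 4.996 and 17.01 in GO3, and 0, 9.25 and 61.98 in FGO. Every NGO cell lay above the FGO median and all 56 FGO cells below the NGO median, while 3 of 51 GO1 cells exceeded the NGO median. The FGO sum was 1.74-fold (1.54 to 1.98) that of GO3. Without the 10 deepest cells of each stage this became log2 1.06 and passed the rule. In GO3 the 10 deepest cells had 10.2 CPM (8.92 to 11.6) of *Hdac6* and the other 34 cells 4.94 (4.13 to 5.86).

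The promoters of *Hdac2* and *Hdac6* are shown as those of a gene without and a gene with a call between NGO and GO1, the one differing by 1.12-fold between NGO and GO1 and the other by 9.38-fold. Each sequence is the 250 bases before the transcription start, from RefSeq (build GRCm38.p6, not the build of the counts), written 5′ to 3′ on the strand of the gene. Capitals mark GGGCGG (also as CCGCCC) and the box CCAAT (also as ATTGG), and the motif TATAAA and the E-box CACGTG were searched on both strands and are in neither window. *Hdac2* is at chr10:36974294-36974543 (plus strand) and *Hdac6* at chrX:7947890-7948139 (minus strand).
Hdac2: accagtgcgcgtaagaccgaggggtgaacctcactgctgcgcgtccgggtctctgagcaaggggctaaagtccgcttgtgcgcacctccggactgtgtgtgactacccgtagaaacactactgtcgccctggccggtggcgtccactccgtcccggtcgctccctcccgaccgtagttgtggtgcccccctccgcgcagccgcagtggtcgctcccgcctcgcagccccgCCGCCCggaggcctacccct
Hdac6: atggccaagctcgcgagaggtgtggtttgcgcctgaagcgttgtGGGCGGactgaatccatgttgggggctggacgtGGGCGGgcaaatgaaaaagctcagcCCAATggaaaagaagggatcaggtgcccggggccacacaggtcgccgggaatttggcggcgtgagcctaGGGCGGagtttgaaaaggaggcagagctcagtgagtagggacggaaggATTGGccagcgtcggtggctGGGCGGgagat
The *Hdac2* window held 27 CpG and 1 GGGCGG, and the *Hdac6* window 17 CpG, 4 GGGCGG and 2 CCAAT. Over 32851 promoters of the same length the median was 6 CpG, with quartiles of 2 and 16, and GGGCGG occurred in 32.7%, CCAAT in 33.8%, TATAAA in 12.4% and CACGTG in 6.02% on either strand. RefSeq entries were matched for 7 of the 10 genes, all but *Hdac1*, *Hdac3* and *Hdac10*. Among the others, *Hdac4* had 23 CpG, 4 GGGCGG and 2 CCAAT, and *Hdac11* had 17 CpG, 1 GGGCGG and 1 CCAAT. *Hdac5* had 12 CpG, 1 GGGCGG and 2 CCAAT, and *Hdac8* had 6 CpG, 0 GGGCGG, 2 CCAAT and 1 TATAAA. The 4 starts of *Hdac7* held 5 to 25 CpG and 0 CCAAT. A match of letters is a description and was not tested as a binding site.

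The other class IIb gene and the class IV gene also had their highest level in NGO. *Hdac10*, known as a polyamine deacetylase, had 8.61 CPM (7.50 to 9.84) in NGO and 0.860 (0.545 to 1.29), 1.08 (0.712 to 1.57), 1.12 (0.849 to 1.46) and 1.96 (1.63 to 2.33) in the growing and fully-grown stages. It stayed below 10 CPM, with NGO 10.02-fold (6.50 to 16.1) over GO1 and 4.40-fold (3.51 to 5.52) over FGO. The log2 change from NGO to GO1 was -3.32, and it was -2.20 without the 10 deepest cells of each stage and -4.75 with equal cell numbers. *Hdac11* (chr6:91106659-91124686, plus strand), the class IV enzyme known to remove fatty acyl groups, had 12.7 CPM (11.3 to 14.1) in NGO, 1.12 (0.757 to 1.601) in GO1, 0.721 (0.427 to 1.14) in GO2, 2.81 (2.36 to 3.32) in GO3 and 6.70 (6.08 to 7.37) in FGO. Its fall from NGO to GO1 was 11.3-fold (7.75 to 17.01), and as a mean over cells it went from 12.8 to 1.86 CPM. The later ratios, 3.90 (2.38 to 6.77) for GO3 over GO2 and 2.38 (1.97 to 2.91) for FGO over GO3, were of levels under 10 CPM. NGO stood 1.89-fold (1.63 to 2.19) over FGO for *Hdac11*, and this passed the rule in 3 of 6 other settings, with log2 values from -1.15 to -1.04. *Hdac11* had a UMI in 44 of 46 NGO cells, 12 of 51 GO1 cells, 6 of 26 GO2 cells, 29 of 44 GO3 cells and 43 of 56 FGO cells.

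Levels before growth and in the fully-grown oocyte were set side by side for each gene. Going from GO3 to FGO, 8 of the 10 genes had the higher sum in FGO, by 1.06-fold (0.997 to 1.13) for *Hdac2* to 2.38-fold for *Hdac11*, among those with at least 10 UMIs in both stages, and *Hdac8* and *Hdac7* were the exceptions. Besides that of *Hdac2*, the intervals of *Hdac4* (0.980 to 1.38) and *Hdac5* (0.803 to 8.17) held 1. From NGO to FGO, 9 of the 10 genes had the lower sum in FGO, with *Hdac7* the exception at 3 and 14 UMIs. The shares of all genes with these directions were not counted. On the log2(CPM + 1) scale centred over the 5 stages, *Hdac1* and *Hdac11* had the most similar courses among the genes that reached 10 CPM (root mean square difference 0.363), followed closely by *Hdac2* and *Hdac8* (0.364). Among the 8665 genes that reached 10 CPM somewhere, those nearest to *Hdac1* were *Klhl17* (0.0292), *Ufc1* (0.0338) and *Myadm* (0.0623). The 1 added to each level narrows changes at low CPM, so nearness here does not mean equal folds. It applies to *Hdac11* after NGO and to *Klhl17*, which had 10.2, 0.635, 0.921, 1.12 and 3.79 CPM. *Ufc1*, the conjugating enzyme for the ubiquitin-like protein UFM1, had 103.98, 15.3, 16.9, 18.1 and 41.3 CPM. The genes nearest to *Hdac2* were *Fxr2* (0.0229), a relative of the fragile X RNA-binding protein, *Supt5* (0.0345), a transcription elongation factor, and *Farp1* (0.0350). *Supt5* had 100.6, 86.3, 62.9, 64.1 and 66.8 CPM.

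The genes of the complexes that hold *Hdac1* and *Hdac2* moved in both directions between NGO and GO1, more of them up than down. Of 39 genes of the Sin3, NuRD, CoREST and MiDAC complexes, 32 had 10 CPM in either stage, of which 11 were higher and 6 lower in GO1, with a median log2 change of 0.31. Of all 8527 tested genes, 20.6% were higher and 25.7% lower in GO1. In the Sin3 complex 7 of 15 genes were higher and 3 lower (median 0.93). The largest rises were of *Sap30*, a small Sin3 subunit, from 86.5 to 398 CPM (4.61-fold, 4.40 to 4.83), *Ing1*, a reader of methylated histone H3, from 79.6 to 331 CPM (4.15-fold, 3.96 to 4.36) and *Arid4a*, from 23.3 to 92.1 CPM (3.95-fold, 3.60 to 4.32). *Sin3b*, one of the scaffolds of the complex, went the other way, from 319 to 130 CPM (2.45-fold, 2.35 to 2.55), as did *Arid4b* (2.53-fold, 2.33 to 2.74). The histone chaperone *Rbbp4*, which belongs to the Sin3 and NuRD complexes, fell from 165 to 53.4 CPM (3.09-fold, 2.91 to 3.28), while its close relative *Rbbp7* rose from 1132 to 2325 CPM (2.05-fold, 2.03 to 2.08). *Arid4b* and *Rbbp7* each passed in 2 of 6 other settings and not, among others, as a mean over cells. Over these 6 settings, 6 to 8 Sin3 genes were higher and 2 or 3 lower in GO1.

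In the NuRD complex 2 of the 11 genes with 10 CPM were higher and 2 lower, with a median of -0.03. Beside this and the next list, 20.6% of all tested genes were higher and 25.7% lower in GO1. *Gatad2b*, a structural subunit, rose from 10.7 to 55.5 CPM (5.18-fold, 4.55 to 5.92) and *Mta2*, which holds the deacetylase in the complex, fell from 13.8 to 2.58 CPM (5.34-fold, 4.11 to 7.02). In the CoREST complex 3 of 8 genes were higher and 2 lower, with a median of 0.58. *Rcor1*, the scaffold, rose from 1.67 to 10.2 CPM (6.14-fold, 4.43 to 8.72), *Gse1* from 11.1 to 53.4 CPM (4.82-fold, 4.24 to 5.50) and *Kdm1a*, the histone demethylase, from 8.21 to 18.2 CPM (2.22-fold, 1.88 to 2.63). *Rcor3*, a relative of *Rcor1*, fell from 13.3 to 2.95 CPM (4.50-fold, 3.51 to 5.83) and *Zmym3* from 15.001 to 6.09 CPM (2.46-fold, 2.04 to 2.98). *Kdm1a* did not pass without the 10 deepest cells or in thinned cells, *Mta2* and *Rcor1* did not pass in thinned cells, and *Zmym3* did not with equal cell numbers. Over 6 other settings, 2 NuRD genes were higher and 2 or 3 lower. In the CoREST list 1 to 3 genes were higher and 1 to 3 lower. None of the 3 MiDAC genes reached 10 CPM in these stages.

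Of the NCoR and SMRT genes, the partners of *Hdac3*, 2 of the 4 with 10 CPM were higher in GO1 and 0 lower, with a median of 0.93. Over all tested genes, 20.6% were higher and 25.7% lower. *Ncor1*, the corepressor that activates HDAC3, rose from 29.7 to 62.3 CPM (2.10-fold, 1.92 to 2.29) and *Tbl1xr1* from 10.5 to 24.5 CPM (2.33-fold, 2.02 to 2.70). *Tbl1xr1* passed in 3 and *Ncor1* in 5 of 6 other settings, with the same direction in each. Over these settings, 0 to 2 genes of the list were higher and 0 or 1 lower in GO1.

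Among the partners and fellow tubulin modifiers of *Hdac6*, 4 of 7 listed genes, all with 10 CPM, were lower in GO1 and 0 higher, with a median of -1.36, where 25.7% of all tested genes were lower. *Cttn*, which encodes the HDAC6 substrate cortactin, fell from 61.3 to 9.38 CPM (6.54-fold, 5.72 to 7.50), *Vcp*, an ATPase that binds HDAC6, from 180.3 to 43.2 CPM (4.18-fold, 3.91 to 4.46), and *Hsp90ab1*, a chaperone and substrate, from 1906 to 481 CPM (3.96-fold, 3.88 to 4.04). The fourth was *Sirt2*, another tubulin deacetylase. In each of 6 other settings, 4 or 5 genes of this list were lower in GO1 and 0 higher. In FGO, *Hsp90ab1* was back at 957 CPM and passed the rule as higher than in GO3, *Cttn* was at 21.3 CPM and *Vcp* at 63.9 CPM. Of the class IIa partners, 2 of 7 genes with 10 CPM were lower in GO1 and 0 higher (median -0.30), a share near the 25.7% of all tested genes. They were *Mef2a*, a transcription factor bound by class IIa enzymes, from 28.1 to 6.73 CPM (4.17-fold, 3.54 to 4.94), and *Camk4*, a kinase that drives these enzymes from the nucleus, from 30.6 to 8.34 CPM (3.67-fold, 3.16 to 4.28). Over the 6 other settings, 2 to 4 class IIa partners were lower and 0 or 1 higher.

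The opposing enzymes and the readers of acetylation were listed as well. Beside these 2 lists, 20.6% of all tested genes were higher and 25.7% lower in GO1. Of 12 acetyltransferases with 10 CPM, 4 were higher and 1 lower in GO1 (median 0.21). *Ncoa3* rose from 16.8 to 84.2 CPM (5.003-fold, 4.51 to 5.56), *Kat6b* from 16.5 to 66.5 CPM (4.03-fold, 3.62 to 4.49) and *Ep300* from 6.19 to 15.8 CPM (2.56-fold, 2.13 to 3.10), while *Kat2a* fell from 35.4 to 14.5 CPM (2.44-fold, 2.17 to 2.76). Of 11 readers of acetylated lysine, 4 were higher and 0 lower (median 0.66), with *Mllt3* from 51.9 to 317 CPM (6.10-fold, 5.75 to 6.47), *Brd1* from 13.3 to 61.9 CPM (4.66-fold, 4.14 to 5.25) and *Brd8* from 101.6 to 263 CPM (2.59-fold, 2.48 to 2.71). The *Brd8* rise was larger as a mean over cells, from 108.99 to 787 CPM. Over 6 other settings, 3 to 5 acetyltransferases were higher and 1 to 4 lower in GO1. Of the readers, 4 or 5 were higher and 0 to 2 lower. From GO3 to FGO, 2.41% of tested genes were higher and 3.54% lower. In the Sin3, NuRD, CoREST, NCoR and SMRT, class IIa partner and reader lists, 0 genes passed in either direction. In the acetyltransferase list *Ncoa3* was lower in FGO, as were 3.54% of tested genes.

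**Figure D5:**
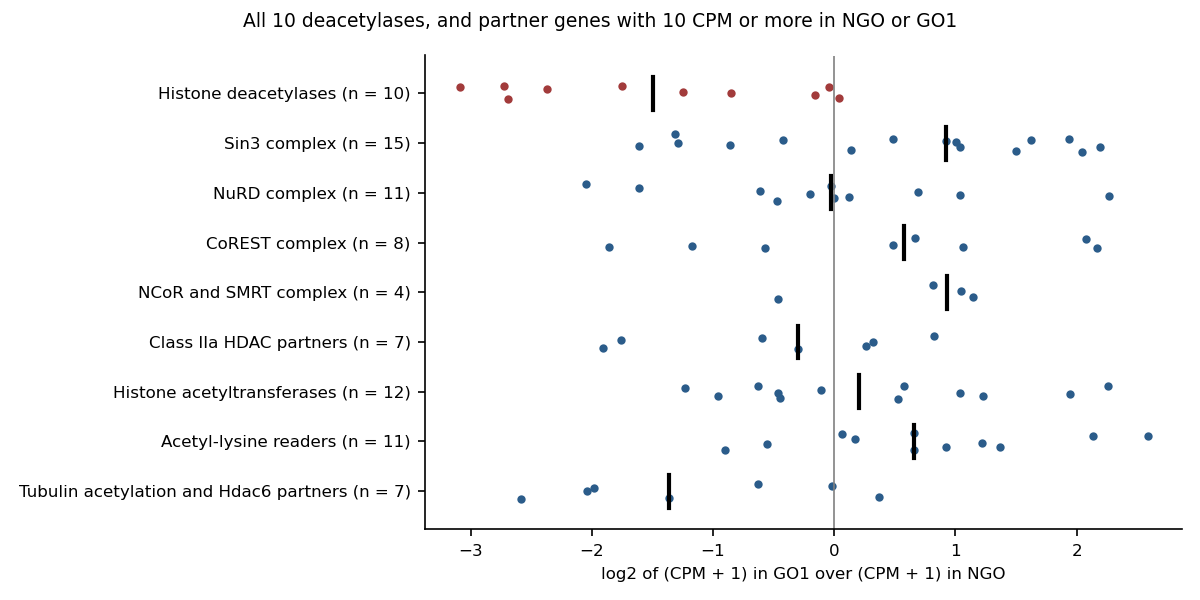
Log2 of (CPM + 1) in GO1 over (CPM + 1) in NGO (horizontal axis) for all 10 deacetylases (top row) and for the partner genes that reached 10 CPM in either stage, by list. Points are genes and bars medians, which lie at -1.50 for the deacetylases, 0.93 for the Sin3 complex and -1.36 for the *Hdac6* partners.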

How the data were processed

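Per the study's methods, the authors assigned paired-end reads to cells by barcode and, after trimming, mapped them to mm9 using Tophat, counted each UMI once and kept oocytes with enough genes and transcripts. Whether counting used strand is not given in the sources used here. The deposited table held counts, whole UMIs per gene and cell, of 223 oocytes, and stages were read from column names. The cells are not tied to the 4 RNA libraries by any label, so a stage was 1 pooled sample and no p-value was computed. The members and gene lists were chosen with earlier results of these data known.

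Summed UMIs of a stage were scaled to its total (24976634 to 64311908 UMIs) as CPM. A change was called at 2-fold or more where the higher stage had 10 CPM or more, and the log2 medians over gene lists and over all genes used CPM + 1, while log2 changes of single genes are of the CPM ratio with nothing added. The named partner genes were those of each list with the largest called folds from NGO to GO1, at most 3 in each direction. Exact Poisson and Clopper-Pearson 95% intervals cover counting error only, and for 0 UMIs the limit is 3 counts. For thinning, 20000 UMIs were drawn per cell, and 0 cells were left out. Other settings were DESeq2 and TMM scaling, a mean over cells, leaving out the 10 deepest cells of each stage, and 26 cells from every stage. The code was tested on simulated data. Positions and transcript lengths were taken from GENCODE on NCBIM37, and promoters from RefSeq on GRCm38.p6. Python 3.11.15, scipy 1.17.1, pandas 2.3.3, numpy 2.4.6, Biopython 1.88, matplotlib 3.10.9, R 4.3.3, DESeq2 1.42.0 and edgeR 4.0.16 were used, the last 2 for scaling factors only.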

Additional observations from a re-analysis of the deposited data

How the results depend on the processing

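The 4 genes lower in GO1 than in NGO (*Hdac1*, *Hdac3*, *Hdac6* and *Hdac11*) passed under both scalings, as a mean over cells, without the 10 deepest cells, in thinned cells and with equal cell numbers. Over all tested genes, 1936 of 8391 were lower in GO1 with DESeq2 scaling and 1797 of 8333 with TMM scaling. As a mean over cells it was 2954 of 8539, and without the 10 deepest cells 3189 of 8488. The numbers were 2973 of 8488 in thinned cells and 2230 of 8715 with equal cell numbers. With no minimum level 7 of the 10 deacetylase genes passed and with 50 CPM 2. From GO1 to GO2, where 0 passed, 1 gene did with no minimum (*Hdac5*), as a mean over cells (*Hdac6*), in thinned cells (*Hdac2*) and with equal cell numbers (*Hdac6*), and from GO2 to GO3 2 did with no minimum. From GO3 to FGO, where 1 passed, 3 did with no minimum, 0 with 50 CPM, and 2 each at 1.5-fold, without the 10 deepest cells and with equal cell numbers. From NGO to FGO, where 3 passed, 5 did with no minimum and 2 each with 50 CPM, DESeq2 scaling and TMM scaling. There 4 each passed at 1.5-fold, as a mean over cells, without the 10 deepest cells and in thinned cells. In these 4 settings, 2442 of 8132, 1615 of 8055, 1629 of 8083 and 1782 of 8047 tested genes were lower in FGO, respectively. From GO1 to FGO, where 1 passed, 4 did with no minimum, 0 with 50 CPM and 3 at 1.5-fold. The *Hdac1* share of the pair was 63.4% in NGO, 10.3% in GO1, 35.3% in GO2 and 22.5% in GO3 in thinned cells, and 11.3% in GO1, 24.7% in GO2 and 51.8% in FGO without the 10 deepest cells. As a mean over cells it was 14.8% in GO1. Per length of the longest transcript it was 71.5, 28.4, 40.3, 40.9 and 60.6% in the order of growth. GO2 lay above GO3 in thinned cells and as a mean over cells, and no other pair of stages changed order in the settings run. The cause was not tested. Division by the transcript with the longest coding sequence was chosen after seeing the data. Of the log2 changes of single genes, 53 values moved by more than their counting interval and 100 did not. *Hdac2* from NGO to GO1 (log2 -0.16) lay between -0.06 and 0.40 in 6 settings and *Hdac8* (log2 -0.04) between -0.14 and 0.26, so neither has a settled direction. Scaling moved the split of all changed genes, taken as the share that was higher in the later stage. For NGO to GO1 it went from 44.5% to 50.1% (DESeq2) and 53.2% (TMM), so that the larger direction turned. It went from 3.46% to 14.6% (DESeq2) and 11.4% (TMM) for GO1 to GO2, and from 76.8% to 59.2% and 66.8% for GO2 to GO3. For NGO to FGO it went from 41.4% to 48.98% and 56.8%, and the larger direction turned with TMM only. Leaving out the 10 deepest cells moved it to 36.5% for NGO to GO1. For GO1 to GO2 it became 53.4% without these cells, so that the larger direction turned. For GO1 to FGO it went from 46.9% to 63.1% without them, and the direction turned there too. The planned sum of *Hdac1* with *Gm10093* was not run, because the table has no *Gm10093* row. No paired analysis was possible because each stage was 1 pooled sample.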
